A study of Mus musculus with 6 samples.

Results

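Macrophages are tissue phagocytes that take up dying cells and debris, and their genes are not among those that define a regulatory T cell (Treg). The 10 genes described here, of 49315 in the count table, are widely used macrophage genes: Lyz2, Apoe, C1qa, C1qb, C1qc, Cd68, Csf1r, F13a1, Mrc1 and Adgre1. They were picked because their levels differed between Treg libraries of skin and of skin-draining lymph nodes (SDLNs). Their skin and SDLN levels are therefore given as a description, without a test. What was not used for the choice is how the genes stand to one another within a library. Other macrophage, complement and receptor pathway genes were then measured beside them. Those lists, too, were drawn up with earlier results of these data known, so calls within them are no independent support.

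The series profiled bulk RNA of Tregs from mice at P9 (a day count from birth), to find what skin Tregs express beyond their lymph node counterparts. All mice carried the same Foxp3-GFP reporter on a C57BL/6J background, which marks cells making Foxp3, the transcription factor of Tregs, and no treatment was named for either group. Both groups had 3 samples with the same batch number, each made of cells pooled from 3 mice. Skin was digested with enzymes and lymph nodes were mashed, CD45+ cells were enriched on beads, and live CD45+ CD4+ Foxp3-EGFP+ cells were sorted. The tissue label reads skin for the SDLN samples too, so groups follow the titles. Libraries are named by the letters A, B and C of the count table, which have no stated link to the numbered titles. Where 3 values follow each other for a group, they are in the order A, B, C.

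Macrophages depend on the CSF1 receptor, encoded by Csf1r, which binds the growth factors CSF1 and IL-34. The transcription factor PU.1, encoded by Spi1, switches on many genes of the lineage. Tissue macrophages also make C1q, the recognition molecule of the classical complement pathway, and carry scavenger receptors and lysosomal proteins for clearing particles.

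The libraries differed in depth. The skin libraries held 3748669, 11741784 and 9033442 counts in all, and the SDLN libraries 47243498 to 116158706. Between 2911 and 5317 genes reached 1 CPM (counts-per-million of the library's own total) in skin Tregs, against 12397 to 13002 in SDLN Tregs. A count of 0 allows up to 3 counts, called the floor here, which is 0.800, 0.255 and 0.332 CPM in the skin libraries and at most 0.0635 CPM in SDLN Tregs. Intervals and floors cover counting error only, since no molecular identifiers were described. In counts, which are not scaled for depth, Foxp3 had 0, 330 and 1 in the skin libraries against 12208, 10133 and 1788 in the SDLN libraries. Cd4, the co-receptor used in the sort, had 0, 1861 and 2 counts in skin Tregs against 54756, 39115 and 14288 in SDLN Tregs. Cd3g, a chain of the T cell receptor complex, had 888, 663 and 607 CPM in skin Tregs against 1209, 1132 and 1189 CPM in SDLN Tregs. Cd3e, another chain of that complex, had 0, 1757 and 2646 counts in the skin libraries against 102433, 77392 and 27290 in the SDLN libraries. Thus skin Tregs A and C had no counts above the floor for Cd4 and Foxp3, and A had none for Cd3e, though both held Cd3g. Above the floor were 5, 10 and 8 of 10 T cell markers in the skin libraries, against all 10 in each SDLN library. Of 10 T cell markers, none was called higher or lower in skin by edgeR's quasi-likelihood test (2 were lower at an unadjusted p under 0.05). Without skin Tregs A, 5 were called lower and 1 higher, without skin Tregs B 2 and without skin Tregs C 1 were called lower, and DESeq2 on all libraries called 3 lower and 1 higher. Over all 13572 genes tested, edgeR called 1.04% higher and 45.3% lower in skin.

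The members made up far more of the skin libraries than of the SDLN libraries. Their counts summed to 33520, 65464 and 42237 in the skin libraries, or 0.894%, 0.558% and 0.468% of the library. In the SDLN libraries they summed to 9664, 10455 and 5078, or 0.00832%, 0.0144% and 0.0107%. In 9 of the 10 genes every skin library lay above every SDLN library, against 2.39% of the 13572 genes tested. Since the genes were picked on this difference, nothing is read from that count. It was 10 without skin Tregs C and 9 without any other library. All 10 genes passed the filter on low counts. Fitted log2 fold changes ran from 5.13 (SE 0.62) for F13a1 to 8.96 (SE 2.79) for Adgre1, leaving out Mrc1, which was near 0 in SDLN Tregs. In bulk RNA, fewer cells of a type and less RNA per cell cannot be told apart.

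**Figure D1:**
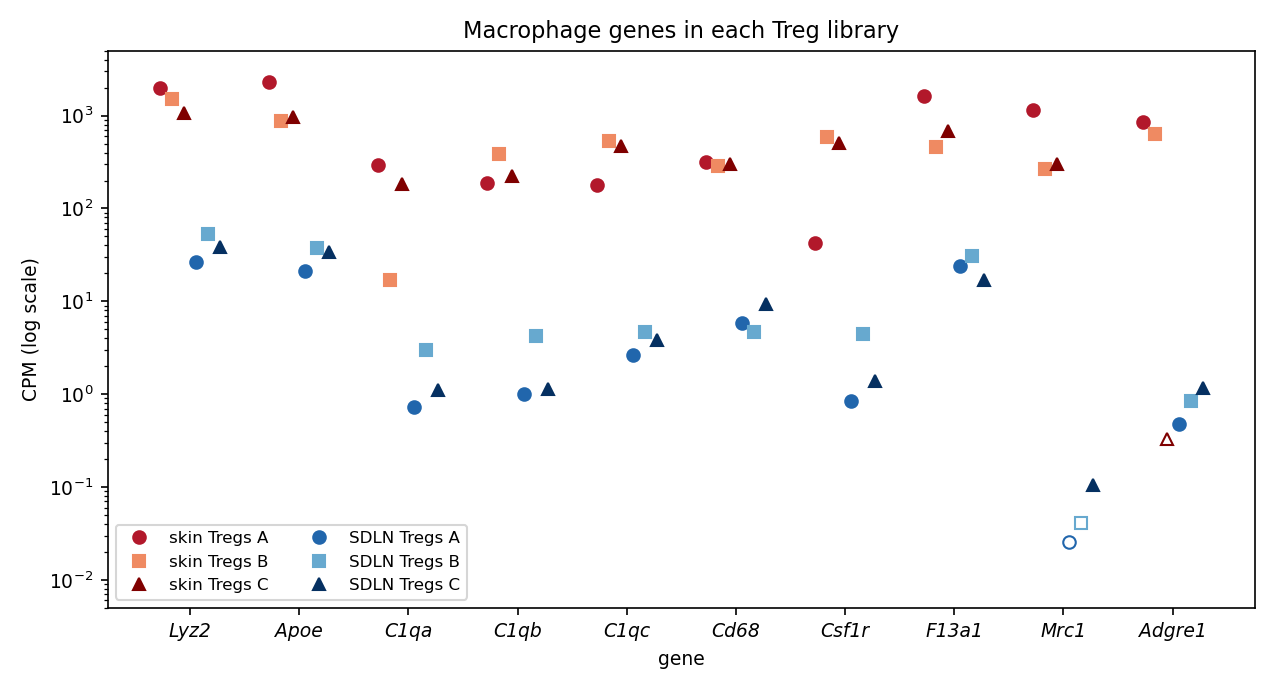
CPM (log axis) of each macrophage gene in each library, with skin Tregs in red and SDLN Tregs in blue. Open symbols have 3 counts or fewer and are drawn at the level of 3 counts: Mrc1 in SDLN Tregs A and B, and Adgre1 in skin Tregs C. Skin libraries lie above SDLN libraries except for Adgre1 in skin Tregs C.

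Lysozyme M, encoded by Lyz2, breaks down bacterial cell walls and is abundant in macrophages, monocytes and neutrophils. Lyz2 (ENSMUSG00000069516, GRCm38 chr10:117277331-117282321, minus strand) had 1978, 1519.8 and 1057 CPM in the skin libraries against 26.5, 53.7 and 38.4 CPM in the SDLN libraries. Skin Tregs averaged 1518 ± 461 CPM and SDLN Tregs 39.5 ± 13.6 CPM (mean ± SD, n = 3 each, as for all means here), and the ratio of the means was 38.4. The groups did not overlap, and the lowest skin library lay 19.7-fold above the highest SDLN library. A close copy, Lyz1, lies beside it on chr10:117287797-117292868 and is known from intestinal Paneth cells. Lyz1 had 0, 1 and 2 counts in the skin libraries against 67, 1 and 32 in SDLN Tregs, so the counts lay on Lyz2. The coding sequences, 447 bases each in GENCODE M21, were identical at 425 bases (95.1%), with a longest shared run of 118 bases. The first 90 coding bases are shown because they hold 7 of the differences by which reads are assigned to a copy, in capitals:
Lyz2: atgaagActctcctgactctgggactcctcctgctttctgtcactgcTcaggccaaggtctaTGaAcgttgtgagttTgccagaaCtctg
Lyz1: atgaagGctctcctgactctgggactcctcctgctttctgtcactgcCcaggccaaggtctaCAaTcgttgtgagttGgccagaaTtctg

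Apolipoprotein E, encoded by Apoe, carries lipids out of macrophages. Apoe (ENSMUSG00000002985, chr7:19696109-19699188) had 2318, 873 and 957 CPM in the skin libraries against 21.1, 37.5 and 34.0 CPM in the SDLN libraries. The means were 1383 ± 811 and 30.9 ± 8.66 CPM, a ratio of 44.8. Lyz2 and Apoe were the first and second of the 10 genes per kilobase of exon in all 6 libraries. Lyz2 had 1154 ± 350 CPM per kb in skin Tregs, and Apoe had 647 ± 379 CPM per kb.

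The C1q genes encode the A, B and C chains, which assemble in equal numbers. They lie in 1 cluster of 18675 bases, GRCm38 chr4:136880129-136898803, all on the minus strand, with gaps of 3616 bases between C1qb and C1qc and 2851 bases between C1qc and C1qa. C1qa (ENSMUSG00000036887) had 293, 16.9 and 182 CPM in the skin libraries against 0.732, 2.98 and 1.12 CPM in the SDLN libraries. C1qb (ENSMUSG00000036905) had 186, 382 and 223 CPM in skin Tregs and 1.01, 4.29 and 1.14 CPM in SDLN Tregs. C1qc (ENSMUSG00000036896) had 177, 534 and 471 CPM in skin Tregs and 2.62, 4.63 and 3.79 CPM in SDLN Tregs. The ratios of the means were 102 for C1qa, 123 for C1qb and 107 for C1qc. In skin, then, C1qa was low in library B alone and C1qb and C1qc were lowest in library A. The highest skin level was 17.4-fold above the lowest for C1qa, 2.05-fold for C1qb and 3.01-fold for C1qc. Per kilobase of exon, the skin means were 157 ± 133, 242 ± 95.4 and 204 ± 98.4 CPM per kb for C1qa, C1qb and C1qc, whose spreads overlap.

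The proportions of the C1q chains were compared within libraries since the choice of the genes did not use them. C1qa held 44.6% of the 2460 C1q counts in skin Tregs A (95% Wilson interval 42.6 to 46.6%), 1.81% of 10944 in B (1.58 to 2.08%) and 20.7% of 7910 in C (19.8 to 21.6%). C1qc held 27.0%, 57.2% and 53.8% in the skin libraries, and C1qb held 28.4%, 40.9% and 25.5%. The skin libraries thus differed in C1qa share by more than their counting intervals. In the SDLN libraries, C1qa held 16.8% of 506 (13.8 to 20.3%), 25.1% of 866 (22.3 to 28.0%) and 18.5% of 286 C1q counts (14.5 to 23.4%), closer together than in skin. Mean shares of C1qa were 22.4% ± 21.4 in skin Tregs and 20.1% ± 4.36 in SDLN Tregs (SD, n = 3 each). The difference was 2.25 percentage points, with an exact two-sided permutation p of 0.80 (adjusted over 3 chains 0.80). Skin minus SDLN differences were 5.60 percentage points for C1qb and -7.85 for C1qc, each with an exact permutation p of 0.50 (adjusted 0.75). No chain can reach p below 0.10 with 3 against 3 libraries. Without skin Tregs A the difference turned to -8.86 points for C1qa and 1.64 for C1qc. The chains can be told apart by sequence: coding identity was 52.2% for C1qa and C1qb, 51.2% for C1qa and C1qc and 55.0% for C1qb and C1qc, and the longest shared run was 15 bases.

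**Figure D2:**
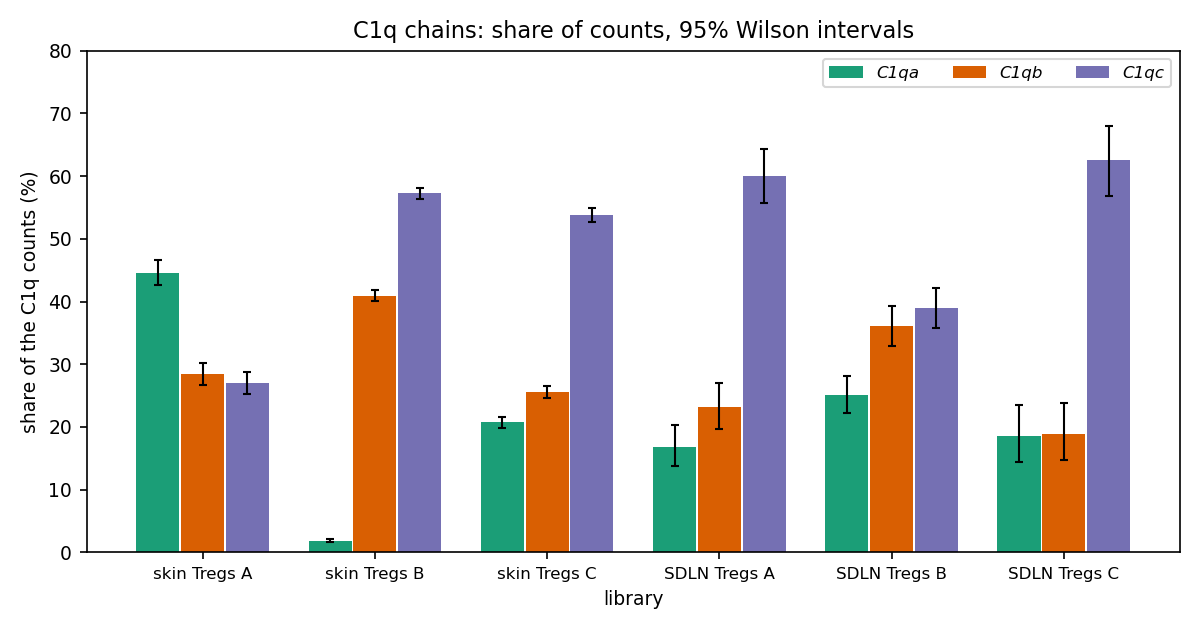
Share of the C1q counts (%) taken by each chain in each library, with 95% Wilson intervals for counting error. C1qa takes 44.6%, 1.81% and 20.7% in the skin libraries, while in SDLN Tregs it takes between 16.8% and 25.1%.

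CD68 is a lysosomal membrane protein of phagocytes, and it was the steadiest member among the skin libraries. Cd68 (ENSMUSG00000018774, chr11:69664213-69666153) had 316, 289 and 299 CPM in the skin libraries against 5.89, 4.63 and 9.46 CPM in the SDLN libraries. The means were 301 ± 14.0 and 6.66 ± 2.51 CPM, a ratio of 45.3. Its highest skin level was 1.10-fold the lowest. Of 1016 genes with a skin mean of 100 to 1000 CPM and more than 3 counts in every skin library, 3 had a ratio at or below that of Cd68, Cd68 itself included. The median ratio in that range was 3.62 (interquartile range 2.22 to 9.11).

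Csf1r, the receptor, was far lower in skin Tregs A than in B and C, a 13.9-fold span from lowest to highest. Csf1r (ENSMUSG00000024621, chr18:61100598-61132149, plus strand) had 42.9, 596 and 504 CPM in the skin libraries against 0.835, 4.44 and 1.40 CPM in the SDLN libraries. The ratio of the means, 381 ± 296 and 2.22 ± 1.94 CPM, was 171, and skin Tregs A still lay 9.68-fold above the highest SDLN library. Its exons overlap those of Hmgxb3 on the other strand, and the strand setting of the counting was not given. Hmgxb3 had 0 counts in all skin libraries but 4753, 2926 and 866 in the SDLN libraries, so the SDLN value of Csf1r is uncertain.

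F13a1 encodes the A subunit of coagulation factor XIII, which crosslinks fibrin, and is expressed in tissue macrophages and megakaryocytes. F13a1 (ENSMUSG00000039109, chr13:36867178-37050244) had 1644, 461 and 683 CPM in the skin libraries against 24.1, 30.6 and 17.0 CPM in the SDLN libraries. Its means were 930 ± 629 and 23.9 ± 6.84 CPM, a ratio of 38.9, and the groups did not overlap. An antisense gene, Gm30489, overlaps its exons and is not in the table, so reads of the 2 cannot be told apart.

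Mrc1 encodes the mannose receptor CD206 of tissue macrophages. Mrc1 (ENSMUSG00000026712, chr2:14229392-14332057) had 1141, 269 and 299.9 CPM in the skin libraries. In the SDLN libraries it had 0, 0 and 5 counts, so no fold is given. Its fellow members in SDLN Tregs were not at 0: Lyz2 had 1813 to 3906 counts there. The mannose receptor gene was therefore the member last in level per kilobase in all SDLN libraries.

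Adgre1 encodes F4/80, the surface protein by which mouse macrophages are often stained. Adgre1 (ENSMUSG00000004730, chr17:57358691-57483527) had 845 and 636 CPM in skin Tregs A and B (3168 and 7464 counts) but 1 count in skin Tregs C. In the SDLN libraries it had 55, 62 and 55 counts, or 0.473, 0.852 and 1.16 CPM. The highest skin level was at least 2545-fold above the level that 3 counts give in skin Tregs C. Adgre1 was the only one of the 10 genes in which skin and SDLN libraries overlapped.

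The make-up of the member counts differed between skin libraries. To turn the member proportions of skin Tregs A into those of skin Tregs B, 31.3% of the member counts would have to move to other genes. The figure was 25.03% for A and C and 18.1% for B and C, against 11.5%, 13.3% and 12.0% for the 3 pairs of SDLN libraries. Lyz2 took 22.1%, 27.3% and 22.6% of the member counts in the skin libraries against 31.9%, 37.4% and 35.7% in SDLN Tregs. Csf1r took 0.480% in skin Tregs A but 10.7% and 10.8% in B and C, and Mrc1 took 12.8%, 4.83% and 6.41%. No skin library was therefore a scaled copy of another. Such swings were common in skin Tregs: of 2211 genes that averaged 100 to 1000 CPM in skin, 54.0% had no more than 3 counts in 1 or 2 of the 3 libraries. Of 8 members in that range, Adgre1 was the one at the floor in a library. Total depth and the number of genes detected also moved with tissue, and their part in these values was not tested.

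**Figure D3:**
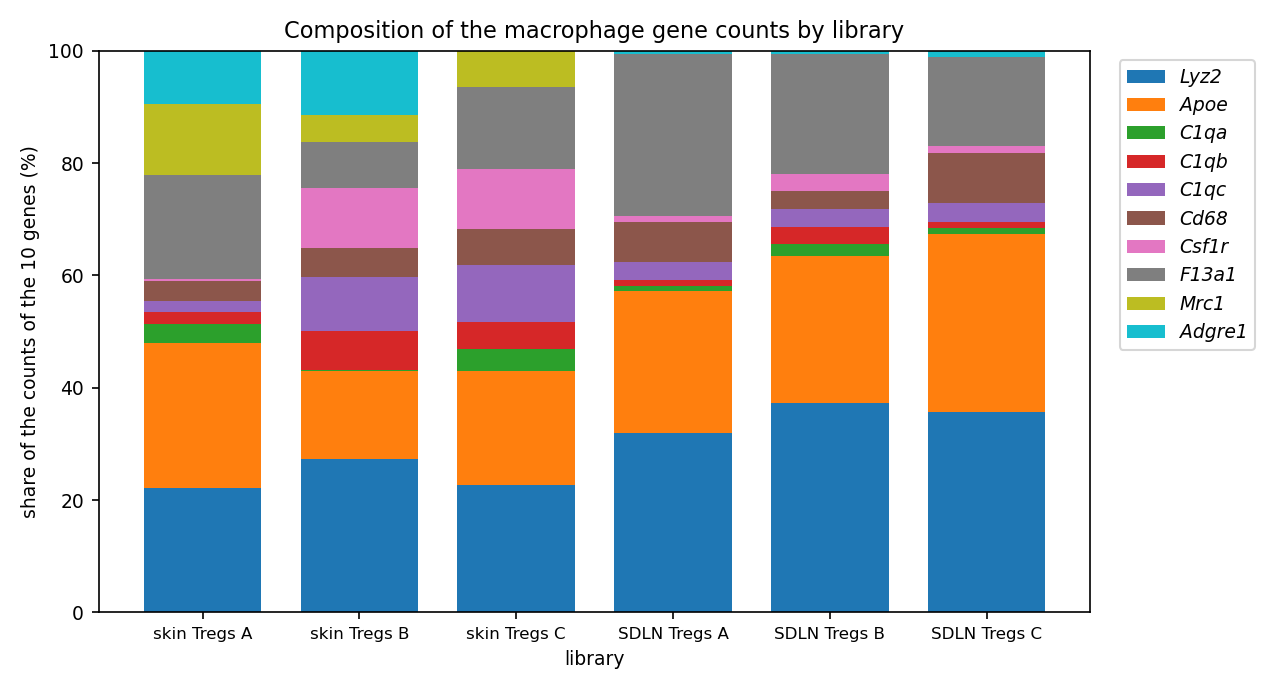
Share (%) of the summed counts of the 10 macrophage genes taken by each gene in each library. Lyz2 and Apoe take 42.9 to 48.0% together in skin Tregs and 57.2 to 67.3% in SDLN Tregs. Csf1r is thin in skin Tregs A, C1qa in B and Adgre1 in C.

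Promoters of 7 members are in the RefSeq table for GRCm38.p6, as 10 promoters, some of them for the same gene. The PU.1 core GAGGAA, or its reverse complement TTCCTC, was searched for in the 250 bases before each start on both strands. It was found in 7 of the 10 promoters, against 7639 of 32851 promoters (23.3%) in the table. At least 1 promoter matched in 6 of the 7 members, a count by gene that has no such background here. Apoe and F13a1 each also have a promoter without a match, and that of F13a1 is not shown. The AP-1 motif TGAGTCA was in 1 of the 10 (Cd68), against 4.46% of all. A match is a description of letters, not of binding. The promoters of C1qb, C1qc, Cd68 and F13a1 are shown because each holds 1 match, in capitals, at 30, 193, 225 and 66 bases before the start. They are written from 5′ to 3′ on the minus strand and cover chr4:136886201-136886450, chr4:136893066-136893164, chr11:69666171-69666420 and chr13:37050245-37050494. For C1qc the bases inside the GENCODE gene are left out:
C1qb: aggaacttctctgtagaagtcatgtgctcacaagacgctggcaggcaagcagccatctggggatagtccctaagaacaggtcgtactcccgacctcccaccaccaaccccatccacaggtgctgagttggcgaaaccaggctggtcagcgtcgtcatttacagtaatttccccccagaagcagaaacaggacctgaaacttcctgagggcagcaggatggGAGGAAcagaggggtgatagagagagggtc
C1qc: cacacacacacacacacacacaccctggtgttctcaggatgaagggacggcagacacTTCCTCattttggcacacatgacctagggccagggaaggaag
Cd68: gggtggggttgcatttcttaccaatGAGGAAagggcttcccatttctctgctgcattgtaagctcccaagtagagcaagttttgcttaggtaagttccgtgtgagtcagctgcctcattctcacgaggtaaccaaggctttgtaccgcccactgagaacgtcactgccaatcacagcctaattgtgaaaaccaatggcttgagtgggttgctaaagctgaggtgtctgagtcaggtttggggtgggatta
F13a1: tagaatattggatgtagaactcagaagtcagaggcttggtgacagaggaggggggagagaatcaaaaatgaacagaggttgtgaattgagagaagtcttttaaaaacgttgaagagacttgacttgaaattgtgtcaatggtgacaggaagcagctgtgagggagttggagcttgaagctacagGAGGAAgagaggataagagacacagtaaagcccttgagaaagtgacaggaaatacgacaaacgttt

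A list of 25 other macrophage genes was measured beside the members. Of its genes, 14 passed the filter, 5 were higher in skin Tregs and 3 were lower, against 1.04% higher and 45.3% lower of 13572 genes (edgeR quasi-likelihood test, adjusted p under 0.05). The median log2 fold change was 3.89 against -2.21 over all genes. Pf4, a chemokine of platelets and some macrophages, had 164 ± 30.4 CPM in skin Tregs and 0.113 ± 0.0242 in SDLN Tregs (log2 fold change 10.49, SE 1.605, adjusted p = 0.0038 by edgeR). Fcer1g, the signalling chain of Fc receptors, had 283 ± 3.27 and 2.74 ± 0.363 CPM (6.70, SE 1.05, adjusted p = 0.00395). Ms4a7, a membrane protein of macrophages, had 214 ± 53.7 and 0.929 ± 0.292 CPM (7.83, SE 1.33, adjusted p = 0.0049). These 3 genes did not overlap between tissues. Spi1, the gene of PU.1, had 399, 271 and 14.1 CPM in the skin libraries and a mean of 2.09 ± 1.23 in SDLN Tregs (6.52, SE 1.74, adjusted p = 0.0232). Tyrobp, an adaptor of myeloid receptors, had 490, 105 and 7.97 CPM in the skin libraries against 2.99 ± 1.03 in SDLN Tregs (5.68, SE 1.82, adjusted p = 0.0466). Both were thus lowest in skin Tregs C. Leaving out SDLN Tregs A, B or C left Fcer1g, Ms4a7 and Pf4 alone as called higher, 3 genes, and leaving out skin Tregs A gave 8.

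Many other macrophage genes were seen in some skin libraries only. Cd14, the co-receptor for bacterial lipopolysaccharide, had 1994 counts in skin Tregs B and 0 in A and C. Fcgr1, an Fc receptor, had 1124 counts in B and 0 in A and C, and Cx3cr1, the fractalkine receptor, had 1862 in B alone. Cd163, a receptor for haemoglobin, had 1991, 233 and 0 counts in the skin libraries against 0 in all SDLN libraries. Folr2, a folate receptor, had 439, 0 and 415. No single skin library held all of these genes. Axl, Lyve1, Siglec1, Trem2, Vsig4, Marco and Itgam had 0 counts in all skin libraries, and Mertk was at or under 3 counts in each. Among these, Axl, Marco and Itgam were called lower in skin. Lyve1, Siglec1 and Vsig4 had 0 counts in all SDLN libraries too. Maf, a transcription factor of both T cells and macrophages, had 394, 516 and 5.31 CPM in the skin libraries against 152, 260 and 119 CPM in the SDLN libraries (log2 fold change 0.65, adjusted p = 0.862, edgeR).

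Of 20 other complement genes, 9 passed the filter, 2 were higher and 2 were lower, beside 1.04% higher and 45.3% lower over all genes. Cfp, encoding properdin, which stabilizes the alternative pathway convertase, had 401, 146 and 219 CPM in the skin libraries against 5.16, 4.97 and 5.99 in SDLN Tregs (log2 fold change 5.45, SE 1.10, adjusted p = 0.00854 by edgeR). Properdin acts in the alternative pathway, while C1q starts the classical one. C1ra, C1s1 and C2, the proteases that act after C1q, had 0 counts in all skin libraries, as had Cfd, Serping1, Cr2, Cd93 and Masp1. C1s1, Cd93 and Masp1 had 0 counts in all SDLN libraries too, Cfd and Serping1 at most 1, and C1ra 0, 0 and 13. C2 and Cd59a were called lower in skin. C4b had 493 counts in skin Tregs B and at most 1 in A and C, and C3ar1 had 831 counts in C alone. The median log2 fold change was 0.05, against -2.21 over all genes. The call of Cfp was lost without SDLN Tregs A or B, leaving 1 gene.

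Of 12 genes around the CSF1 receptor, its ligands, signalling enzymes and lineage factors, 11 were tested. None was called higher in skin, also at an unadjusted p under 0.05, and 4 were lower by edgeR, beside 45.3% lower over all genes, with a median log2 fold change of 0.19. DESeq2 called 2 higher, Csf2ra and Csf2rb, receptor chains for related growth factors. The ligand gene Csf1 had 0 counts in all skin libraries and 32.6 ± 10.6 CPM in SDLN Tregs (adjusted p = 0.00361, edgeR). Il34 had 0 counts in all skin libraries and 0, 16 and 0 counts in the SDLN libraries. Fes and Plcg2, signalling enzymes of myeloid cells, were also lower, though the call of Fes was lost without skin Tregs A or B. Csf2ra had 588, 4626 and 1 counts in the skin libraries (adjusted p = 0.219), and Cebpa, a myeloid transcription factor, had 7, 2302 and 0 (adjusted p = 0.20). Leaving out skin Tregs A or C gave 1 higher gene, Cebpb or Csf2ra.

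Markers of other cell types that a gate could hold were counted in the same libraries, and their calls stand beside 1.04% higher and 45.3% lower over all genes. Dendritic cell markers summed to 1772 to 3351 CPM in skin Tregs and 223 to 240 CPM in SDLN Tregs, and 3 of 9 tested were higher: Cd209a, Mgl2 and Clec10a, lectins that some macrophages carry too. Cd209a had 1110 ± 89.5 and 1.66 ± 0.813 CPM (adjusted p = 0.00322, edgeR), and the call of Clec10a was lost without SDLN Tregs B or C, leaving 2. Zbtb46, Xcr1 and Kmo had 0 counts in skin and were lower. Cd207 and Clec9a had 0 in all 6 libraries. Of 5 monocyte markers tested, Ccr2 was higher and 3 were lower, Ly6c2 and Plac8 among them, with Ccr2 not called without SDLN Tregs A or C or skin Tregs B or C, and the list summed to 549.5 to 1194 CPM in skin Tregs and 598 to 1035 CPM in SDLN Tregs. Neutrophil markers summed to at most 0.800 CPM in skin Tregs, and none of the 10 passed the filter. Mast cell markers summed to 226 CPM in skin Tregs A, where Cma1 had 811 counts, and to 0 in B and C. Fibroblast markers summed to 0, 90.6 and 0.775 CPM and keratinocyte markers to 0, 0 and 13.4 CPM in the skin libraries, with Krt14 and Krt5 at 0 in all 6 libraries. B cell markers summed to 40.1 to 159 CPM in skin Tregs and 90.9 to 148 CPM in SDLN Tregs, and 3 of 5 tested were lower. T cell markers summed to 3501 to 5795 CPM in skin Tregs and 7984 to 9807 CPM in SDLN Tregs. The sum of the dendritic cell markers was higher in skin, as was that of the members. Of its mean of 2674 CPM in skin Tregs, Cd209a held 1110, Mgl2 1028 and Clec10a 304. The list did not move as a whole, since 5 of its 12 markers had 0 counts in all skin libraries. The part of these markers in the members' levels was not tested.

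**Figure D4:**
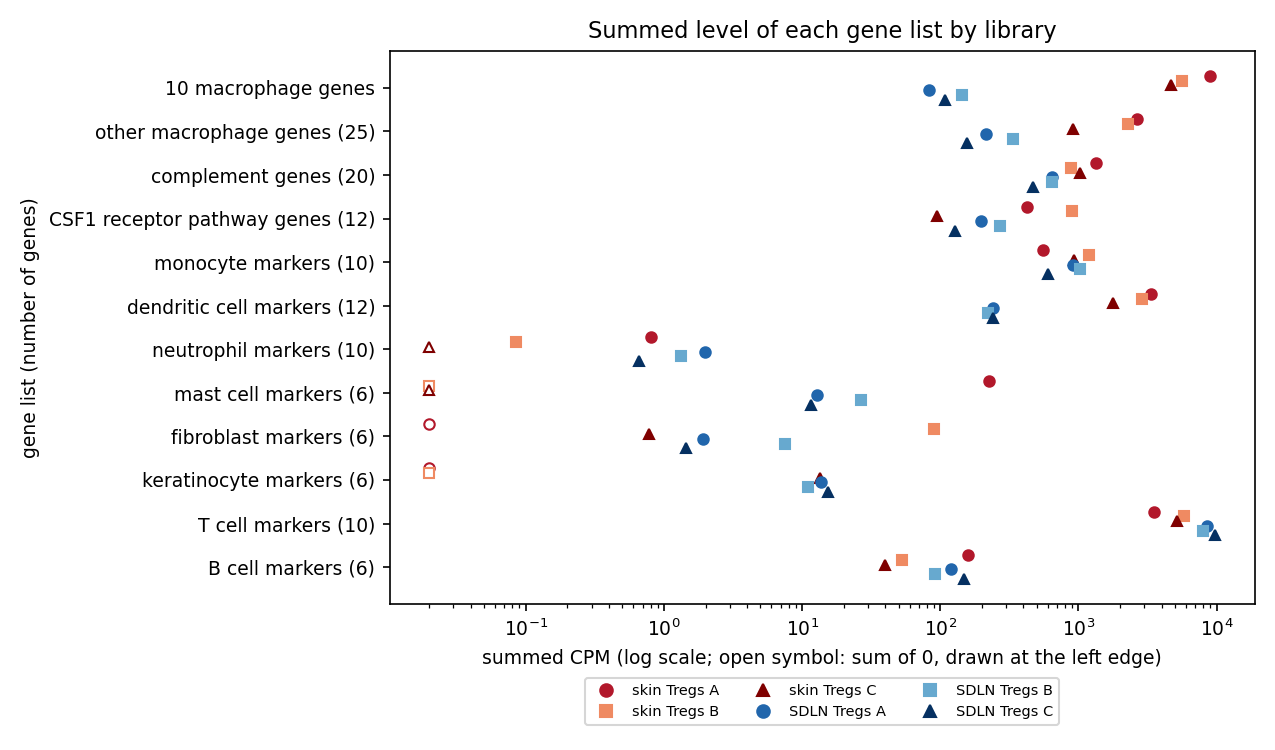
Summed CPM (log axis) of each gene list in each library, with the number of genes listed in brackets and open symbols at the left edge for sums of 0. The members sum to 4676 to 8942 CPM in skin Tregs and 83.2 to 144 CPM in SDLN Tregs, and every skin library also lies above every SDLN library for the other macrophage, complement and dendritic cell lists.

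With the members themselves left out, the genes whose pattern was most like that of the C1q chains were ranked by the root mean square difference, on the log2 scale, from their mean profile over the 6 libraries, among 1120 genes. In order, they were Grk3 (0.22), Fcer1g (0.36), Klf4 (0.45), Dusp1 (0.58), Ctsh (0.62), Ms4a7 (0.62), Cdkn1a (0.64), Cd74 (0.64), Cfp (0.66) and Nr4a2 (0.66). By the correlation over the libraries, 3 of the 10 recurred in the first 10: Grk3, Fcer1g and Klf4. On the same measure, which for some members lay among these 10 values, Lyz2 stood at 0.59, Apoe at 0.61, Cd68 at 0.66 and F13a1 at 0.74, while Csf1r stood at 1.29, Mrc1 at 1.56 and Adgre1 at 3.33. The chains themselves stood at 1.12 for C1qa, 0.58 for C1qb and 0.63 for C1qc. C1qa thus lay further from the mean profile of the chains than all 10 ranked genes. All values are over 6 libraries that share the tissue difference.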

How the data were processed

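Bulk RNA-seq counts were analysed for 3 skin Treg and 3 SDLN Treg libraries. The authors trimmed reads with Trimmomatic 0.36, mapped them to GRCm38 with STAR 2.5.2b and counted with featureCounts of Subread 1.5.2. The deposited table holds unnormalized counts for each Ensembl gene. The annotation release and the strand setting are not given in the sources used here. Symbols, positions and exon lengths came from GENCODE M21.

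CPM was computed here from the library totals, and CPM per kb by dividing by the merged exon length. Tests used edgeR 4.0.16 in R 4.3.3: filterByExpr, TMM, glmQLFit with robust estimation and glmQLFTest, with tissue as the only term and Benjamini-Hochberg adjustment over all 13572 genes tested at 0.05. Fold changes are skin over SDLN. Nothing names the samples as separate cultures beyond pools of mice, so p-values measure only the spread between these samples. C1q shares used an exact two-sided permutation test. Tested on simulated data, the fit recovered changed genes at a low dispersion but not at one close to that of these libraries, so a gene not called is not shown to be unchanged. Alternatives were TMMwsp, DESeq2 size factors, library size only, DESeq2 1.42.0, other filters, a block on the column letter, and leaving out each library.

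The members and 11 lists were chosen with earlier results of these data known. Named genes are the members, the label checks, Lyz1, the 10 genes most like C1q, and from each list the genes with the highest skin mean, with every gene called or at 0 in all skin libraries for the macrophage, complement and receptor lists. Some genes of the lists are not reported here by name, though they stay in the counts.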

Additional observations from a re-analysis of the deposited data

How the results depend on the processing

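Skin Tregs had 3748669 to 11741784 counts, and the common dispersion was 2.04. The count columns of both tissues share the letters A, B and C, which nothing states to mark the same mice. Deviations from the group means correlated at 0.046, -0.01 and 0.0914 for the letters A, B and C, and skin Tregs A and B correlated more with another letter, so the letters were not taken as pairs. A replicate block on the letter, added after seeing the data, gave 61 genes higher and 5633 lower in skin, with 0 other macrophage genes (adjusted p = 0.087 for Pf4, 0.165 for Ms4a7 and 0.187 for Fcer1g, by edgeR), 1 complement gene and 0 CSF1 receptor pathway genes higher. The 141 genes called higher in skin became 77 with no filter, 81 when each library had to hold at least 10 counts, 404 under DESeq2 and 71 to 324 when 1 library was left out. The 6142 called lower became 9 under that minimum of 10, a filter that removes genes at 0 in skin, and 4983 to 7787 when 1 library was left out. Other macrophage genes called higher ranged from 3 to 8 when 1 library was left out. Complement genes called higher numbered 1 with at least 10 counts, and 1 to 2 when 1 library was left out. Genes of the CSF1 receptor pathway called higher numbered 2 with DESeq2 and 0 to 1 when 1 library was left out, and none was left to test with at least 10 counts. When 1 library was left out, the skin minus SDLN share ran from -8.86 to 12.5 points for C1qa, 0.93 to 10.6 for C1qb and -15.3 to 1.64 for C1qc. The cause of these changes was not tested. The summed skin level of the members, 6398 CPM, stayed within 1 SD under all scalings tried and ran from 5125 to 7259 CPM when 1 library was left out. Of 128 refitted log2 fold changes of members, 127 moved by less than their SE and 0 reversed. The exception was Mrc1 without SDLN Tregs C, where all SDLN counts are 0 and no fold can be read. The count of members above every SDLN library when 1 library is left out (9 to 10) was added after seeing the data.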
